A study of Arabidopsis thaliana with 18 samples.

Results

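The response of wild-type Arabidopsis thaliana root tips to 4 h of 5 µM indole-3-acetic acid (the auxin IAA) was taken from 4 of the 18 libraries of an RNA sequencing series, 2 from IAA-treated and 2 from mock-treated Col-0 seedlings. All loci that passed a low-count filter were compared, 20644 of the 33602 counted. The seedlings were 7 days old and had grown upright on MS medium in continuous light, and RNA was taken from the tip section of the root. For a repeat in another hormone background, 2 libraries of Col-0 given 5 µM IAA together with 100 nM brassinolide (BL, a brassinosteroid) were set against 2 libraries given BL alone, also for 4 h. All 4 groups were wild-type Col-0. The other 5 groups of the series were mutants and a set of shorter reads. In the fit, 2 of them, untreated bri1-116 and untreated bri1-116 with bzr1-1D, entered the low-count filter, the scaling and the estimate of spread, but no comparison. Whether libraries that share a group stem from different cultures is not stated in the labels, so p-values measure the spread between these samples, which may be technical.

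Auxin is perceived by F-box receptors of the TIR1 and AFB group together with Aux/IAA proteins, which are repressors. Binding of auxin leads to the breakdown of the Aux/IAA proteins and frees the ARF transcription factors, which recognise auxin response elements in promoters. Among the genes that respond are those for Aux/IAA proteins and for GH3 enzymes, which join IAA to amino acids, so the pathway feeds back on itself. In roots, auxin is known for starting lateral roots in the pericycle, for maintaining the stem cells of the tip and for slowing elongation at high doses.

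Reads assigned to genes numbered 36431707 and 16694220 in the IAA libraries, against 23684709 and 29482429 in the mock libraries, and a count of 0 allows up to 0.0837 and 0.181 CPM with IAA and up to 0.126 and 0.102 CPM in mock (CPM, read counts scaled to a TMM-adjusted library size of 1e6; the limit is 3 counts and covers counting error only). Libraries of a group correlated at r = 0.9969 across loci, in both groups. Of 33602 loci, 8786 had no count in these 4 libraries and 4172 were counted but did not pass the filter. As a check on the tissue, the 11 root tip markers summed to 414 and 392 CPM with IAA and to 511 and 541 CPM in mock, with none at 0. The 11 shoot markers summed to 15.7 and 12.4 CPM with IAA and to 26.4 and 27.3 CPM in mock, and 1 of them was at 0 in all 4 libraries.

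The first question was how widely transcripts responded to IAA. Adjusted p-values under 0.05 (edgeR's quasi-likelihood test, Benjamini-Hochberg adjustment) were reached by 12236 of 20644 loci, 59.3%, of which 6179 rose (29.9%) and 6057 fell (29.3%). More than 2-fold changes were called for 2829 loci, 13.7%, with 1272 higher (6.16%) and 1557 lower (7.54%). Most calls were small, with a median log2 fold change of 0.52 among called rises and of -0.56 among called falls, and the smallest called change was 0.12. Beyond 4-fold there were 461 rises and 449 falls, beyond 16-fold 101 rises and 60 falls, and beyond 32-fold 51 rises and 32 falls. The loci that rose more than 2-fold held 6.72% and 6.62% of the reads of the IAA libraries and 1.95% and 1.89% of those of the mock libraries. The loci that fell more than 2-fold held 2.57% and 2.56% of the reads with IAA, against 8.01% and 8.0% in mock. In 80.6% of loci the 2 groups did not overlap, so a lack of overlap was common among loci in general. In bulk samples such as these, fewer cells of a type and less RNA per cell cannot be told apart. The share of loci called depended on level, from 33.0% of the 1656 loci with a mean under 1 CPM to 75.4% of the 2187 loci at 100 CPM or more, with median standard errors of 0.442 and 0.0591 on the log2 scale.

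**Figure D1:**
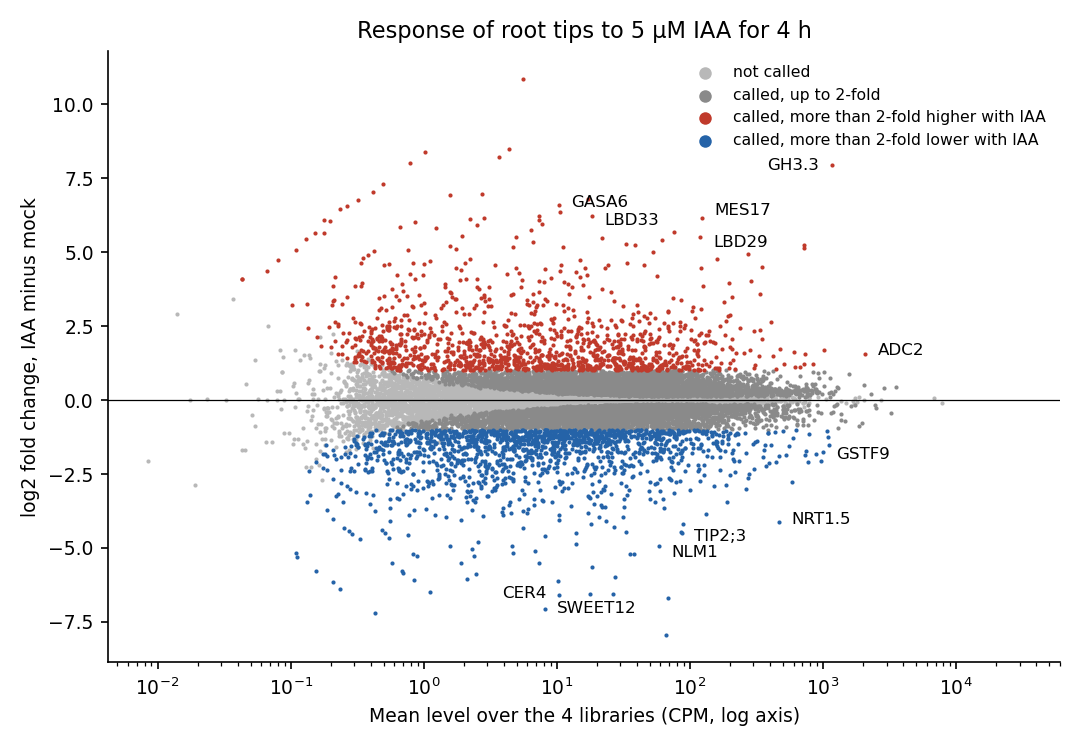
Each point is 1 of 20644 loci, with its mean level over the 4 libraries (CPM, log axis) against its log2 fold change, IAA minus mock; colours give the call and its size. Loci that changed more than 2-fold lie at all levels, with GH3.3 and ADC2 among abundant transcripts that rose and NRT1.5 and GSTF9 among abundant ones that fell.

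Of all genes with a symbol and at least 2 CPM, GH3.3 (AT2G23170), a gene for an enzyme that joins IAA to amino acids, rose most. It had 2413 and 2225 CPM with IAA and 8.64 and 10.2 CPM in mock. The log2 fold change was 7.94 with a standard error (SE) of 0.201 (adjusted p = 8.31e-15, edgeR). Both IAA libraries lay far above both mock libraries. The gain in reads of GH3.3 was also the largest of any locus. Next to it stood OFP4, an OVATE family gene, with 5.89 and 4.93 CPM with IAA and 0.0 and 0.068 CPM in mock. The mock libraries held only 2 OFP4 reads together, and the ratio was 147 with a counting interval of 40.2 to 1216. GASA6, a gene for a small gibberellin-regulated peptide, had 20.7 and 20.1 CPM with IAA and 0.169 and 0.238 CPM in mock (log2 fold change 6.59), and its relative GASA5 had 143 and 153 CPM with IAA and 3.37 and 2.48 CPM in mock (5.68). In neither GASA gene did the groups overlap, which the rule for naming the largest rises required. LBD33 and LBD19, which encode LOB-domain transcription factors, rose by 6.24 and 6.23. Further rises were those of the zinc finger gene ZFP2 (6.37), the MYB gene MYB16 (6.14), the glutamate decarboxylase gene GAD5 (5.76) and the phloem protein gene PP2-A5 (5.33), all on the log2 scale.

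The promoters of the genes that rose most were searched for TGTCTC and TGTCGG, letters of the auxin response element, on both strands of the 250 bases before the RefSeq start (TAIR10.1). Either was present in 14.8% of 20591 windows, in 19.3% of the 1262 windows of loci that rose more than 2-fold, in 22.5% of the 457 windows beyond 4-fold and in 22.8% of the 101 beyond 16-fold. Among loci that fell more than 4-fold the share was 14.7%, and among loci not called it was 14.1%. Counted with or without the other, TGTCTC was in 15.8% of windows of loci that rose more than 4-fold, against 10.7% of all windows, and TGTCGG in 7.44% against 4.57%. These shares are a description without a test, and a match is not evidence of binding. Of the 15 largest rises, 4 held a match, and their windows are shown because they belong to the strongest responders of the data. They are given 5′ to 3′ on the strand of the gene, with the matches in capitals and the start of the gene just after the last base. The GH3.3 window is chr2:9866563-9866812 on the minus strand, that of LBD33 is chr5:1831468-1831717 on the minus strand, that of the Aux/IAA gene IAA5 is chr1:5366498-5366747 on the minus strand and that of GH3.2 (BRU6 in RefSeq) is chr4:17579368-17579617 on the plus strand.
GH3.3: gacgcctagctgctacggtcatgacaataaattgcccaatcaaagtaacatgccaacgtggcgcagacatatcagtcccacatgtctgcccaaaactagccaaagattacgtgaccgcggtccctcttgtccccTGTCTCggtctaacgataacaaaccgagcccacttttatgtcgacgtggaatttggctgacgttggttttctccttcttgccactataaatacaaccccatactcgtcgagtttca
LBD33: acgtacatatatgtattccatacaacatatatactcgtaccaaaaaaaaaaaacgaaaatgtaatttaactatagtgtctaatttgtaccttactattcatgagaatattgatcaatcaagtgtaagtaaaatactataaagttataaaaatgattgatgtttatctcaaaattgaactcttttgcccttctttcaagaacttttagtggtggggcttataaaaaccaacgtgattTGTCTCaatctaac
IAA5: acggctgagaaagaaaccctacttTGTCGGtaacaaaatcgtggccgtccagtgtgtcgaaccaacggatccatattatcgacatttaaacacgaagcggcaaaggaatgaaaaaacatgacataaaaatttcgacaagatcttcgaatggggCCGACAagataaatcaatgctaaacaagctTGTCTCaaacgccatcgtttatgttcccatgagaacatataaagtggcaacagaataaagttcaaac
GH3.2: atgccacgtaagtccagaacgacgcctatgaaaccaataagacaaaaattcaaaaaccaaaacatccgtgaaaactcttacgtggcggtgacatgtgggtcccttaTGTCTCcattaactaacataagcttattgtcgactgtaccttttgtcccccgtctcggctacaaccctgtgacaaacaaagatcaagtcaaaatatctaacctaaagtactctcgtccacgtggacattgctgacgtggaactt
GH3.3 and GH3.2 hold 1 TGTCTC each, ending 111 and 139 bases before the start. LBD33 holds 1 that ends 9 bases before it. IAA5 holds 3 matches, which end 221, 92 and 62 bases before the start, and the middle one reads CCGACA because it is TGTCGG on the other strand.

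Aux/IAA repressor genes rose as a group. Of 29 genes, 26 were tested, and 21 rose, 19 of them more than 2-fold, while 2 fell and 3 were not called. The rises and falls were 80.8% and 7.69%, against 29.9% and 29.3% of all loci. The median log2 fold change was 1.93, against 0.00 over all loci tested. IAA19 had 306 and 305 CPM with IAA and 10.8 and 11.5 CPM in mock (log2 fold change 4.78, SE 0.0914, adjusted p = 3.54e-16, edgeR). IAA5 had 15.4 and 15.3 CPM with IAA and 0.337 and 0.17 CPM in mock (5.94, SE 0.244), the largest change in the family. IAA9 had 1566 and 1522 CPM with IAA and 467 and 481 CPM in mock (1.70, SE 0.0522). The groups did not overlap in any of these 3 genes. IAA29 (5.48), IAA30 (4.15) and IAA13 (2.84) rose as well. IAA28, a repressor that acts early in lateral root initiation, went the other way, with 53.3 and 51.8 CPM with IAA and 84.4 and 85.3 CPM in mock (log2 fold change -0.69, SE 0.0554, adjusted p = 1.67e-08). IAA33, whose product lacks the degron that auxin receptors bind, fell by 1.05. IAA16 (0.07), IAA27 (-0.05) and IAA31 (0.11) did not pass the test.

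ARF transcription factor genes moved in the same direction but less. All 15 were tested, 10 rose, 4 of them more than 2-fold, and none fell. ARF4 had 155 and 152 CPM with IAA and 27.6 and 29.2 CPM in mock (log2 fold change 2.43, SE 0.0719), and ARF19, an activator in lateral root formation, had 199.8 and 182 CPM with IAA and 40.0 and 43.5 CPM in mock (2.19, SE 0.089). Neither gene overlapped between groups. ARF7, the close partner of ARF19, had 80.6 and 74.9 CPM with IAA and 67.7 and 72.3 CPM in mock, with an adjusted p of 0.0525 (edgeR). That value lay just outside the threshold, and 4 of the 12 alternative settings called it, with log2 fold changes of 0.15 to 0.20. ARF16 (1.65) and ARF3 (1.25) also rose, and ARF11 had the lowest value, -0.39, which was not called. Among 15 receptors and corepressors, 6 rose and 4 fell, none more than 2-fold, and only 2 falls were called without IAA replicate 2 or without mock replicate 2. The 6 rises and 4 falls were 40.0% and 26.7% of these genes, against 29.9% and 29.3% of all loci. TIR1, the receptor gene, had 105 and 97.7 CPM with IAA and 91.5 and 102 CPM in mock, and the groups overlapped. AFB1, a gene for another receptor, fell by 0.62 (SE 0.0868), and TPR3, a corepressor gene, rose by 0.68 (SE 0.0882).

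**Figure D2:**
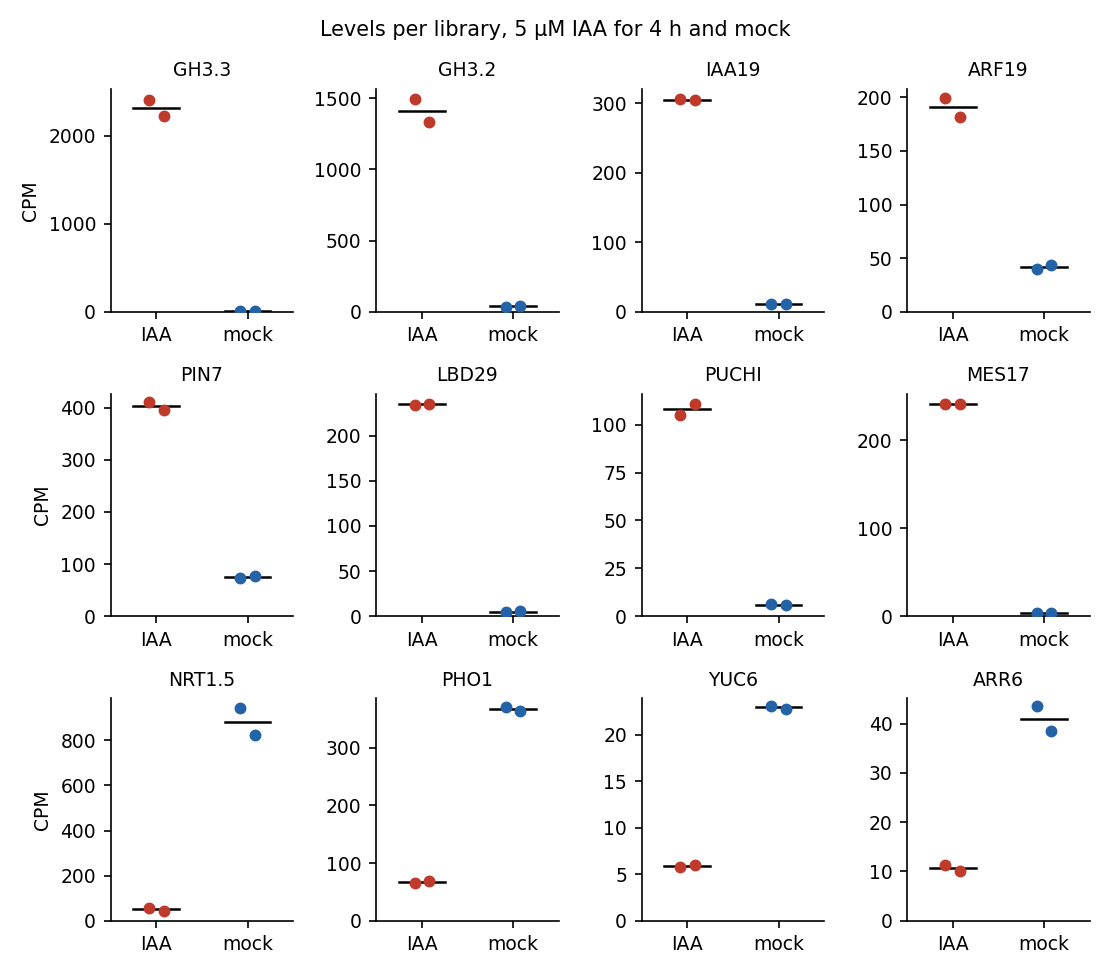
Level in CPM (linear axes from 0) of 12 genes in each library, IAA on the left and mock on the right; points are the 2 libraries of a group and the line is their mean. In every panel the groups do not overlap, with NRT1.5, PHO1, YUC6 and ARR6 lower with IAA and the other 8 genes higher.

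Genes for enzymes that take IAA out of the free pool included the largest single rise of any list, that of GH3.3. Besides it, GH3.2 had 1493 and 1331 CPM with IAA and 35.9 and 38.6 CPM in mock (log2 fold change 5.24, SE 0.0897). GH3.5 (WES1) had 1410.5 and 1389 CPM with IAA and 39.2 and 40.7 CPM in mock (5.13, SE 0.0968). GH3.1 rose by 4.94 and GH3.6 by 4.02. The 5 GH3 genes that rose did so at least 16-fold, each with no overlap between groups. GH3.17, which also encodes an IAA-conjugating enzyme, had 91.8 and 95.9 CPM with IAA and 109 and 107 CPM in mock (-0.21, adjusted p = 0.0113), a call that was lost in the fit of all 18 libraries or without IAA replicate 1 (adjusted p = 0.0623 and 0.106, edgeR). IAMT1, whose product methylates IAA, fell by 0.95. Of the 13 inactivation genes, 10 were tested, 6 rose and 4 fell, 60.0% and 40.0%, against 29.9% and 29.3% of all loci. On the side of release from storage forms, MES17, an esterase gene whose product cleaves methyl-IAA, had 241 and 241 CPM with IAA and 3.46 and 3.33 CPM in mock (6.15, SE 0.129, adjusted p = 8.4e-16). MES17 was the only one of 7 release genes to rise, 3 fell, and ILL6, of the amidohydrolase family, was lowest at -1.71.

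Of 16 auxin synthesis genes 11 were tested, and 7 fell and 2 rose, 63.6% and 18.2%, against 29.3% and 29.9% of all loci. The median was -0.56. YUC genes encode the flavin monooxygenases that make IAA. YUC6 had 5.78 and 6.02 CPM with IAA and 23.1 and 22.8 CPM in mock (log2 fold change -1.97, SE 0.116). YUC3 had 9.37 and 10.7 CPM with IAA and 20.8 and 24.5 CPM in mock (-1.21, SE 0.119). Both were lower in every IAA library. YUC2 fell by 3.34 (SE 0.489) at low levels, 0.112 and 0.0602 CPM with IAA and 1.22 and 0.849 CPM in mock, and YUC8 fell by 0.71. TAA1, the aminotransferase gene of the step before, had 75.5 and 76.0 CPM with IAA and 27.6 and 31.1 CPM in mock (1.36, SE 0.118), and YUC9 rose by 0.55.

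Of 23 transport genes 22 were tested, 11 rose and 6 fell, 50.0% and 27.3%, against 29.9% and 29.3% of all loci. PIN7, an efflux carrier gene, had 410.4 and 395 CPM with IAA and 72.9 and 77.4 CPM in mock (log2 fold change 2.42, SE 0.0696). PIN3, for a related carrier, rose by 1.97. AUX1 and LAX3, genes for influx carriers, rose by 1.49 and 2.07, LAX3 with 579 and 554 CPM under IAA and 134 and 136 CPM in mock. The groups did not overlap in any of these. PIN4 fell by 0.63. PIN5, whose carrier sits in the endoplasmic reticulum, fell to 0.781 and 0.903 CPM with IAA, against 4.3 and 4.42 CPM in mock. PIN2, the carrier gene of root gravitropism, had 177 and 179.8 CPM with IAA and 193 and 203 CPM in mock and was not called (adjusted p = 0.102, edgeR). The kinase gene PID, whose product phosphorylates PIN proteins, rose by 2.71, and its relative WAG1 fell by 0.97. Of 16 listed SAUR genes, small early auxin genes with near-identical copies, only 8 were tested, 4 rose and 2 fell. Of the 43 tested loci that RefSeq names SAUR-like, a group chosen after its values were seen, 16 rose and 16 fell. SAUR24 rose by 4.11, at 1.95 and 1.32 CPM with IAA and 0.0843 and 0.102 CPM in mock, and SAUR36 fell by 2.28. Of 8 HD-ZIP class II genes, 3 rose, HAT2 by 0.91 and HB17 by 0.91 among them, and 4 fell, HAT14 by 1.41, with 2 falls called without IAA replicate 1 or without mock replicate 2.

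Lateral root regulators rose nearly as a whole. All 19 were tested, 18 rose, 15 of them more than 2-fold, and 1 fell, with a median of 2.65. The rises were 94.7% of the list, against 29.9% of all loci. LBD29 had 234 and 235 CPM with IAA and 4.85 and 5.4 CPM in mock (log2 fold change 5.51, SE 0.079, adjusted p = 3.41e-17, edgeR). LBD18 had 104 and 99.9 CPM with IAA and 3.37 and 3.09 CPM in mock (4.99, SE 0.112), LBD16 had 53.3 and 51.4 CPM with IAA and 8.05 and 8.12 CPM in mock (2.70, SE 0.0753), and LBD33 had 32.8 and 39.9 CPM with IAA and 0.169 and 0.714 CPM in mock. These LOB-domain genes act downstream of ARF7 and ARF19, and each was higher in both IAA libraries than in either mock library. PUCHI, an AP2-type regulator of early primordia, had 105 and 111 CPM with IAA and 6.28 and 5.64 CPM in mock (4.18, SE 0.077). GATA23, which marks founder cells, had 29.7 and 28.8 CPM with IAA and 1.9 and 2.04 CPM in mock (3.89, SE 0.108). MAKR4, for a membrane-associated protein of the sites where lateral roots form, had 235 and 232 CPM with IAA and 9.82 and 11.0 CPM in mock (4.48, SE 0.0845). In these 3 genes also the groups were far apart. PLT7 (3.99), FLP (2.65), PLT5 (2.45), ACR4 (0.89), PLT3 (0.87) and MYB77 (0.73) rose as well. LBD14 was the exception, with 1.0 and 0.903 CPM under IAA and 4.38 and 4.28 CPM in mock (-2.15, SE 0.233).

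Genes of lateral root emergence, the passage of the new root through overlying cells, followed with 8 of 12 higher and 2 lower. These were 66.7% and 16.7%, against 29.9% and 29.3% of all loci. The peptide gene IDA had 3.82 and 3.49 CPM with IAA and 0.0843 and 0.238 CPM in mock (log2 fold change 4.40, SE 0.36), and HAE, which encodes one of its receptors, had 10.5 and 10.5 CPM with IAA and 2.78 and 2.89 CPM in mock (1.88, SE 0.147). HSL2, for the other receptor, had 17.0 and 16.7 CPM with IAA and 15.7 and 18.1 CPM in mock and was not called. PGAZAT, a polygalacturonase gene of cell separation, rose by 4.00, and the subtilisin-like protease gene AIR3 had 577 and 558 CPM with IAA and 106 and 111 CPM in mock (2.38, SE 0.0784). Their groups did not overlap. The wall genes XTH23 and EXPA14 fell, by 1.13 and 0.72.

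Of 24 genes of the G1 and S phases, 14 rose and 6 fell, 1 of them by more than 2-fold. This was CYCD3;1, a D-type cyclin gene of cell cycle entry, with 54.8 and 54.9 CPM under IAA and 22.1 and 18.4 CPM in mock (log2 fold change 1.45, SE 0.0902). MCM6 (0.91) and MCM5 (0.33), for parts of the replication helicase, and E2FA (0.76), for a transcription factor of S phase entry, rose as well. KRP1 and KRP2, for inhibitors of cyclin-dependent kinases, fell by 0.76 and 0.60. Of 16 genes of G2 and mitosis, 4 rose and 5 fell, against 29.9% and 29.3% of all loci, and none changed more than 2-fold. Without IAA replicate 1, and by DESeq2, 2 rises and 1 fall were called. There were 3 falls without IAA replicate 2, 2 rises without mock replicate 1 and 1 fall without mock replicate 2. The values of the list ran between CCS52A1, an activator of the switch to endoreplication, at -0.59 and CDKB2;1 at 0.48. Of 13 genes of the stem cell niche and root cap, 3 rose and 6 fell, 23.1% and 46.2%, against the same shares of all loci. WOX5, which marks the quiescent centre, had 7.48 and 8.54 CPM with IAA and 3.16 and 3.02 CPM in mock (1.35, SE 0.195). The root cap gene SMB rose by 0.66, and BRN2, also of the root cap, and MGP, of the ground tissue, fell by 1.16 and 1.01.

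**Figure D3:**
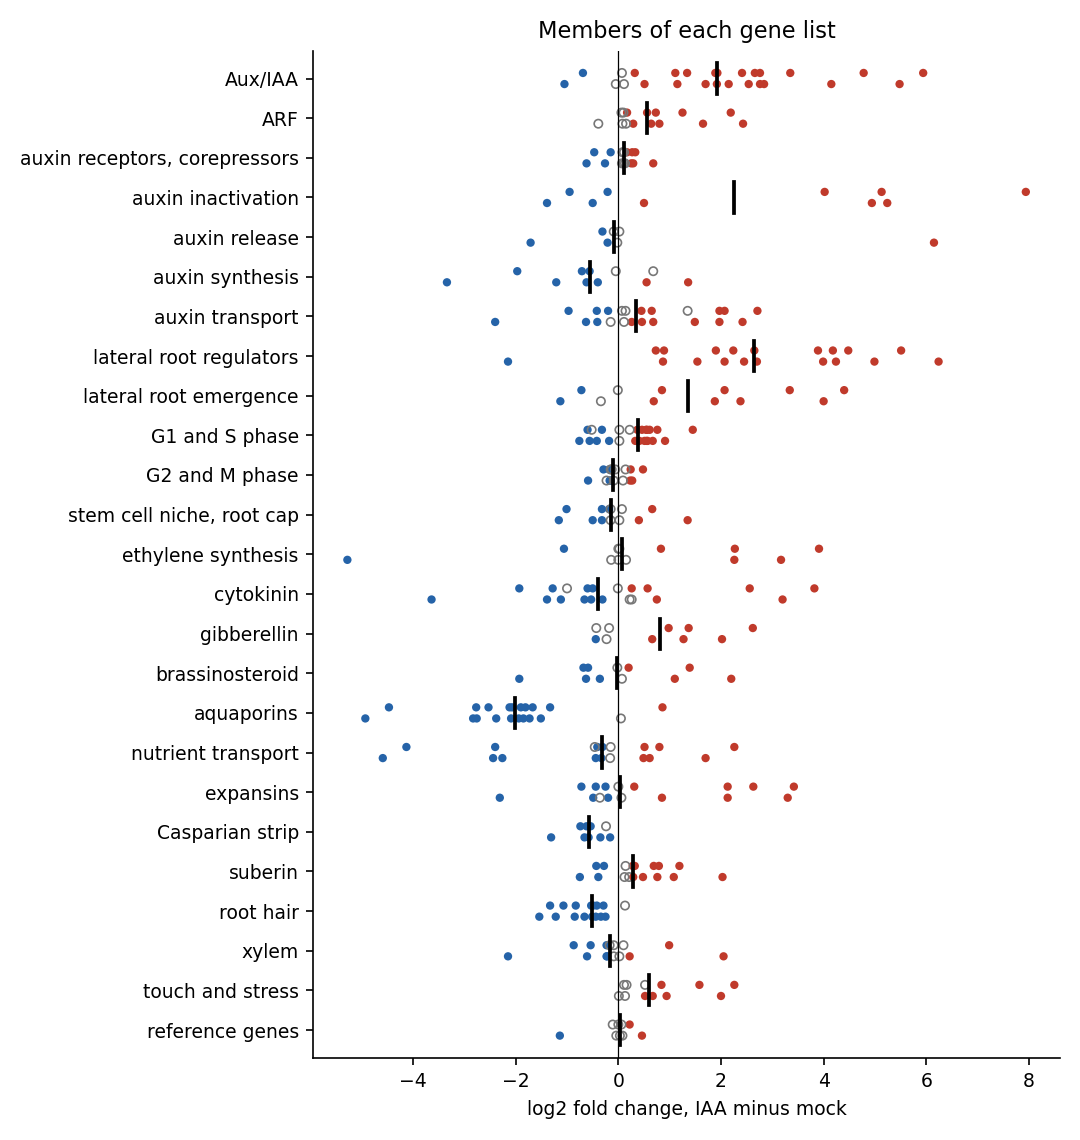
Each point is the log2 fold change, IAA minus mock, of 1 tested gene in 1 of 25 gene lists; red points rose, blue points fell, open points were not called, and the bar is the list's median. Lateral root, Aux/IAA and inactivation genes reach the largest rises, while 18 of 20 aquaporin genes lie below -1.

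Genes of other hormone pathways were also examined, beside the 29.9% of all loci that rose and the 29.3% that fell. In ethylene synthesis, ACS genes encode the enzyme of the rate-limiting step, and of 12 genes tested of 14, 5 rose and 2 fell, or 1 without IAA replicate 1. ACS6 had 76.1 and 74.7 CPM with IAA and 14.2 and 17.0 CPM in mock (log2 fold change 2.27, SE 0.141), ACS9 rose by 3.91, and ACS8 rose to 5.13 and 6.38 CPM with IAA, against 0.632 and 0.612 CPM in mock. ACS5 was at 0.112 and 0.12 CPM with IAA and 3.67 and 5.57 CPM in mock (-5.28, SE 0.362). ACS2 was not called, at 7.09 and 7.1 CPM with IAA and 7.16 and 7.07 CPM in mock. In the cytokinin list, 6 of 20 tested genes rose and 10 fell, 30.0% and 50.0%, so the share of rises was that of all loci. CKX7 and CKX6, for enzymes that break cytokinin down, rose by 3.82 and 2.56, and CKX1 rose to 14.1 and 14.4 CPM with IAA, against 1.56 and 1.53 CPM in mock. In contrast CKX4, for another such enzyme, had 0.614 and 0.542 CPM with IAA and 6.28 and 8.43 CPM in mock (-3.64, SE 0.218). ARR6, a response regulator gene induced by cytokinin, had 11.2 and 9.99 CPM with IAA and 43.5 and 38.4 CPM in mock (-1.93, SE 0.104), and the synthesis gene IPT3 fell by 1.12.

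Of 10 gibberellin genes tested, 6 rose and 1 fell. GA2OX8 and GA2OX2, for enzymes that inactivate gibberellin, rose by 2.62 and 2.02. GA3OX1, for an enzyme that activates it, had 10.6 and 8.91 CPM with IAA and 14.1 and 13.0 CPM in mock (log2 fold change -0.44, adjusted p = 0.0133), and was not called without IAA replicate 2 or without mock replicate 1 (adjusted p = 0.09 and 0.0726, edgeR). Of 7 strigolactone genes, MAX4, a synthesis gene, had 27.5 and 25.6 CPM with IAA and 1.69 and 1.02 CPM in mock (4.33, SE 0.177), and 3 fell, MAX2, for the F-box protein of the pathway, by 0.75. Of 11 brassinosteroid genes, 4 rose and 5 fell, 36.4% and 45.5%. DWF4, a synthesis gene, had 118 and 116 CPM with IAA and 46.0 and 43.5 CPM in mock (1.39, SE 0.0704), and SOB7, for an inactivating enzyme, had 220.1 and 210.0 CPM with IAA and 46.2 and 47.3 CPM in mock. BR6OX1, for the enzyme of a late step of synthesis, fell by 1.93. Of 12 peptide hormone genes tested, 3 rose, among them RGF8 (1.84) and IDA, and 7 fell, among them PSK2 (-2.85) and PSK4 (-2.07).

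Most listed aquaporin genes, whose products let water through the plasma membrane (PIP) and the tonoplast (TIP), fell together. Of 20 listed genes, which are not the whole family, 18 fell, all 18 by more than 2-fold, 1 rose and 1 was not called. The median was -2.01, and the falls were 90.0% of the list, against 29.3% of all loci. PIP1B (PIP1;2) had 398 and 389 CPM with IAA and 1369 and 1388 CPM in mock (log2 fold change -1.81, SE 0.0612). PIP2A (PIP2;1) had 297 and 286 CPM with IAA and 1221 and 1262 CPM in mock (-2.09, SE 0.0664). GAMMA-TIP (TIP1;1) had 599.5 and 552 CPM with IAA and 1592 and 1697 CPM in mock (-1.51, SE 0.072). These 3 were among the 8 loci that lost the most reads of all. TIP2;3 had 7.76 and 6.92 CPM with IAA and 151 and 178 CPM in mock (-4.47, SE 0.138). NLM1 (NIP1;1), of the NOD26-like group, had 3.4 and 4.21 CPM with IAA and 109 and 116 CPM in mock (-4.93, SE 0.105, adjusted p = 9.38e-16, edgeR). In none of the 18 genes that fell did the groups overlap. PIP2;6 went the other way, with 33.6 and 31.0 CPM under IAA and 18.5 and 17.4 CPM in mock (0.86, SE 0.115), and PIP2;8, at 14.8 and 16.3 CPM with IAA and 15.3 and 14.5 CPM in mock, overlapped. PIP2;2 and PIP2;3 are near-identical copies, so reads could be shared or lost between them.

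**Figure D4:**
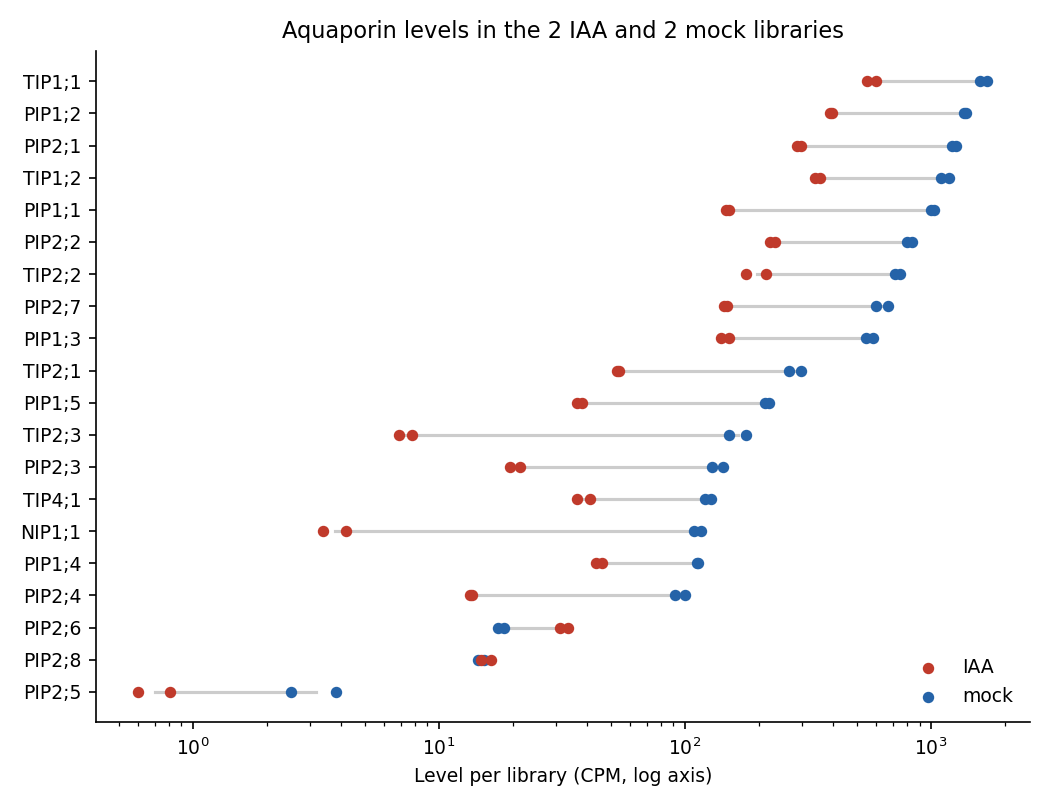
Level per library (CPM, log axis) of the 20 listed aquaporin genes, ordered by their mock mean. Red points are the 2 IAA libraries, blue points the 2 mock libraries, and the grey line joins the means. PIP2;6 is higher with IAA, PIP2;8 overlaps, and the other 18 are lower with IAA by more than 2-fold.

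Of 18 nutrient transport genes tested, 9 fell and 6 rose, 50.0% and 33.3%, with a median of -0.32; without IAA replicate 1, only 3 rises were called. Over all loci tested, 29.3% fell and 29.9% rose. The members of the list that fell most included genes for loading ions into the xylem. NRT1.5, a nitrate transporter of the pericycle, had 57.5 and 41.9 CPM with IAA and 943 and 824 CPM in mock (log2 fold change -4.13, SE 0.128). SKOR, a potassium channel of the stele, had 0.67 and 0.602 CPM with IAA and 13.8 and 17.5 CPM in mock (-4.59, SE 0.241). PHO1, for phosphate export, had 66.2 and 69.4 CPM with IAA and 371 and 363 CPM in mock (-2.44, SE 0.0882). All 3 were lower in every IAA library. SULTR2;1, for a sulfate transporter, fell by 2.26, and SULTR1;1, for another, fell to 1.28 and 1.56 CPM with IAA, against 5.73 and 8.66 CPM in mock. The highest value of the list was that of NRT2.1, a nitrate uptake gene at under 1 CPM (2.26, SE 0.538). The sucrose transporter genes SWEET12 and SWEET11 were among the largest falls with a symbol, with SWEET12 at 0.112 and 0.12 CPM under IAA and 14.9 and 17.2 CPM in mock (-7.06, SE 0.232) and SWEET11 at -5.18. SWEET3, of the same family, had only 3 reads in the IAA libraries together, and its level in mock was 74.6 times that with IAA, with a counting interval of 25.2 to 365.

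Other large falls with a symbol belonged to CER4, a fatty acyl reductase gene (-6.58), ATCSLB05, of the cellulose synthase-like family (-6.12), ICS2, for isochorismate synthase (-4.51), AGP13, an arabinogalactan protein gene (-4.29), UGT72B3 (-3.91) and the marneral synthase gene MRN1 (-3.95). BGAL4, a beta-galactosidase gene, averaged 9.13 ± 1.25 CPM with IAA and 169 ± 5.31 CPM in mock (SD, n = 2 each; log2 fold change -4.18, SE 0.0776). In each the groups did not overlap, which the rule for naming these genes required. BGAL4 shares 909 bases with an annotated gene on the other strand, MES17, IAA5, GAD5, SKOR, ICS2, NRT1.5 and AT5G60390 also overlap such a gene by 9 to 103 bases, and whether the counting used strand is not given in the sources used here. By reads lost, the largest falls included AT4G11320, a papain-type protease gene, with 358 and 386 CPM under IAA and 1708 and 1412 CPM in mock (-2.07), GSTF9, a glutathione transferase gene, with 469 and 450.2 CPM under IAA and 1580.4 and 1521 CPM in mock (-1.75), and the methionine synthase gene ATMS1, with 2749.7 and 2747 CPM under IAA and 3584 and 3809 CPM in mock (-0.43, SE 0.055). The extensin-like loci, AT3G28550 and AT2G43150, fell by 0.89 and 0.78. By reads gained, ADC2, for the arginine decarboxylase of polyamine synthesis, came after GH3.3, with 3275 and 2906 CPM with IAA and 1115 and 978 CPM in mock (1.56, SE 0.0667). HSC70-1, a chaperone gene (0.44), the peroxidase locus AT3G32980 (0.88) and the elongation factor locus AT5G60390 (0.41) gained many reads through small folds.

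Expansins loosen cell walls, and of 16 expansin genes tested 7 rose and 6 fell, 43.8% and 37.5%, against 29.9% and 29.3% of all loci. EXPA4 had 704 and 698 CPM with IAA and 124 and 102 CPM in mock (log2 fold change 2.63, SE 0.111). EXPA1 had 336 and 322 CPM with IAA and 31.4 and 35.3 CPM in mock (adjusted p = 2.42e-15, edgeR). EXPA12 rose by 3.42, and EXPA8 fell by 2.31. Of 7 genes of redox enzymes at the wall, 2 rose and 4 fell, RBOHB, an NADPH oxidase gene, by 1.31, with 1 rise called without IAA replicate 1 or without mock replicate 2.

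Of 9 Casparian strip genes of the endodermis, 8 fell and none rose, with a median of -0.58. CASP1, which marks the strip, had 186 and 159.9 CPM with IAA and 249 and 269.6 CPM in mock (log2 fold change -0.58, SE 0.0831), and CASP5 fell by 1.31, the only one past 2-fold. GSO1, a receptor gene of strip closure, had the smallest change, -0.16, and lost its call in 4 of the 12 alternative settings. Suberin genes moved in the other direction, with 10 of 17 higher and 4 lower, against 29.9% and 29.3% of all loci. FAR4, a fatty acyl reductase gene, had 164 and 186 CPM with IAA and 45.1 and 40.6 CPM in mock (2.03, SE 0.107). GPAT7 (1.19) and the regulator gene MYB39 (1.08) rose, and MYB41 fell by 0.75.

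Root hair genes fell in 15 of 16 cases, mostly by little, with a median of -0.52 and 4 past 2-fold. The falls were 93.8% of the list, against 29.3% of all loci, whose median was 0.00. RSL4, which drives hair growth, had 5.89 and 7.94 CPM with IAA and 14.2 and 16.6 CPM in mock (log2 fold change -1.22, SE 0.13), and RSL1 was lowest at -1.54. The wall genes PRP3 and LRX1 of growing hairs had 117 and 117 CPM and 83.9 and 87.3 CPM with IAA, against 208 and 215 CPM and 155 and 149 CPM in mock (-0.85 and -0.83). EXPA7 fell by 0.44 and PRP1 by 0.34. RSL2 was not called, at 14.5 and 13.3 CPM with IAA and 12.3 and 13.1 CPM in mock. WER, which marks non-hair cells, also fell, by 0.93.

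Of 15 xylem genes tested, 3 rose and 7 fell, but only 2 falls were called without IAA replicate 2 or without mock replicate 2. ACL5, for thermospermine synthase, had 166 and 161 CPM with IAA and 35.9 and 43.2 CPM in mock (log2 fold change 2.05, SE 0.0846), and VND6, a switch gene of vessel formation, had 0.614 and 0.542 CPM with IAA and 2.7 and 2.58 CPM in mock (-2.15, SE 0.252). Of 7 phloem genes 4 rose, BRX by 1.28, and 2 fell, OPS by 0.39, with 1 fall called without IAA replicate 2 or without mock replicate 1. For comparison, 29.9% of all loci tested rose and 29.3% fell. The share of xylem genes that rose was below that of all loci, and the phloem falls, 28.6%, were close to it. Xylem falls, 46.7% in the main fit, and phloem rises, 57.1%, were above the shares of all loci.

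Of 9 genes often used as references, 6 were not called, among them UBQ10 (-0.11) and YLS8 (-0.00), and 2 rose, EIF4A1 by 0.46, with 1 rise called without IAA replicate 1. ACT2, an actin gene used for scaling, had 499 and 476 CPM with IAA and 1025 and 1130.3 CPM in mock (log2 fold change -1.14, SE 0.0636). ACT8, its near-identical copy, fell by 0.63, ACT11 fell by 2.15 and ACT4 rose by 3.61 at low levels, while ACT7, at 804 and 821 CPM with IAA and 751 and 787 CPM in mock, was not called. Touch and stress genes, which respond to handling, summed to 793 and 928 CPM with IAA and to 458 and 408 CPM in mock, and none of the 12 was at 0. Of these, 7 rose and none fell, with TCH3, a calmodulin-like gene, at 208 and 193 CPM under IAA and 48.3 and 35.9 CPM in mock (2.26, SE 0.117), TCH4 at 1.58, ZAT10 at 2.00 and HSP70 at 271 and 406 CPM under IAA and 191 and 159.9 CPM in mock. The 7 rises were 58.3% of the touch and stress genes, against 29.9% of all loci. The part of these genes in the other results was not tested. Of the 11 root tip markers, 1 rose and 7 fell, none past 2-fold. These were 9.09% and 63.6%, against 29.9% and 29.3% of all loci. The 4 shoot markers tested fell, among them LHCB3, at 2.09 and 1.44 CPM with IAA and 7.16 and 7.78 CPM in mock.

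The same auxin treatment was then examined in roots that also received BL. IAA plus BL against BL alone shared no library with IAA against mock. Adjusted p-values under 0.05 (edgeR) were reached by 11611 loci, 56.2%, of which 5878 rose (28.5%) and 5733 fell (27.8%). Of the loci that rose with IAA alone, 97.7% had the same sign with BL present, 81.8% were also called in that direction and 15 were called in the opposite one. Of those that fell, 97.5% had the same sign, 80.4% were called and 9 were called in the opposite direction. Among loci that changed more than 2-fold, 88.2% of rises and 90.5% of falls were called with the same sign and 0 with the opposite. Across all loci the 2 fold changes correlated at r = 0.898, which describes loci within the same libraries and is not a test. GH3.3 rose by 7.69 with BL present, LBD29 by 5.39 and PUCHI by 3.64. All 18 aquaporin genes that fell were lower again, with a median for the 20 of -1.98, and all 18 lateral root genes that rose were higher again, with a median of 2.61 for the 19.

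The difference between the IAA responses, with BL minus without, was called for 298 loci, 1.44%, with 125 more positive (0.606%) and 173 more negative (0.838%). By library totals instead of TMM factors it was called for 323, with 190 more positive and 133 more negative, so the split between directions depended on the scaling. It was called for 141 loci without IAA replicate 1 and for 195 without mock replicate 1. Unadjusted p-values under 0.05 were held by 2413 loci. Of the 298, 122 had a difference against the direction of their called response to IAA alone, reversals of sign included. In 136 the difference went in the direction of that response, and 40 were not called for IAA alone.

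Of the 16 root hair genes, 9 had a called difference, all 9 more negative with BL present, against 0.838% of all loci. EXPA7 changed by -1.54 with BL present and by -0.44 without (difference -1.10, adjusted p = 3.35e-05, edgeR), PRP1 by -1.38 and -0.34, LRX1 by -1.63 and -0.83, PRP3 by -1.42 and -0.85, and MRH6 by -2.03 and -1.07. The root hair list had a median of -1.40 with BL present and of -0.52 without. ACS9 rose by 1.99 with BL present and by 3.91 without (difference -1.92, adjusted p = 0.000752, edgeR), and BL alone raised it by 2.53 over mock. GH3.2 rose by 4.40 and 5.24 and IAA19 by 3.97 and 4.78 on the log2 scale, so both rose less over BL than over mock. The aquaporin gene NLM1 fell by 4.07 with BL present and by 4.93 without. Of genes with a symbol and at least 2 CPM, the most positive differences were those of CYP78A10 (2.62), UMAMIT35 (1.57), WAKL5 (1.53), ARR7 (1.48) and SNRK2.5 (1.31), and the most negative those of GSTU14 (-2.37), ACS9, NCED9 (-1.57), WOX11 (-1.50) and QWRF7 (-1.40). SNRK2.5, a protein kinase gene, had 39.9 and 46.8 CPM with IAA plus BL and 34.4 and 26.6 CPM with BL, a log2 fold change of 0.47, whereas it had 17.8 and 20.1 CPM with IAA and 33.6 and 33.6 CPM in mock, a log2 fold change of -0.84. Of these, CYP78A10, UMAMIT35, WAKL5, WOX11 and QWRF7 lost the call of their difference when single libraries were left out, and ARR7 lost it in the fit of all 18 libraries (adjusted p = 0.0642, edgeR). SNRK2.5 shares 382 bases with an annotated gene on the other strand.

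**Figure D5:**
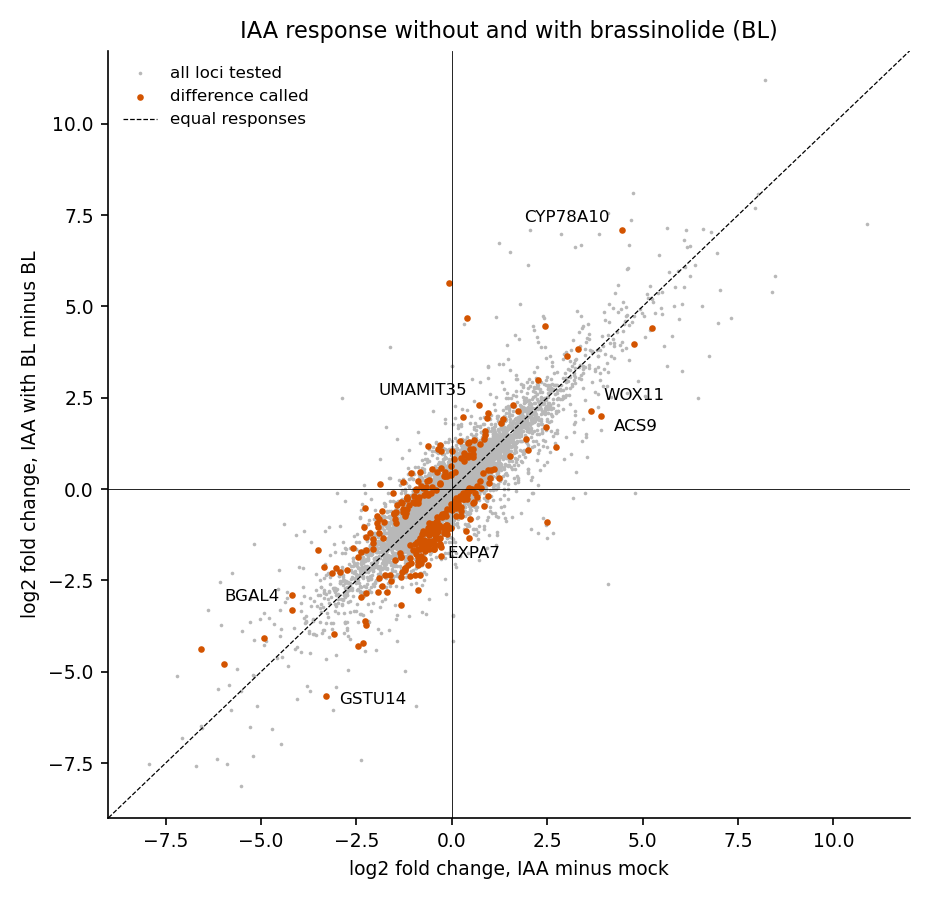
Log2 fold change of IAA minus mock (horizontal) against that of IAA with BL minus BL (vertical) for 20644 loci, with orange points for the 298 loci whose difference was called. Most loci lie near the dashed line of equal responses, with CYP78A10 above it and GSTU14, ACS9 and EXPA7 below it.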

How the data were processed

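RNA of the tip section of roots was made into libraries with a TruSeq kit, per the labels' protocols, and read at 101 bp. The authors deposited raw counts of reads per locus, with no normalization, and per the submitters' processing notes used TopHat 1.4.0, Bowtie and HTSeq with TAIR10. The sources used here give neither the strand setting nor the annotation release. The lines for reads assigned to no gene were left out of library sizes: in the 4 libraries, 5.87% to 6.26% of reads lay outside genes, 3.05% to 3.42% aligned to more than 1 place and 2.03% to 2.19% were ambiguous between genes.

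Counts of the 12 libraries of 101 bp were fitted with edgeR 4.0.16 (limma 3.58.1, R 4.3.3), with TMM factors, filterByExpr (minimum count 10, minimum total 15), a coefficient for each group and quasi-likelihood tests adjusted by Benjamini-Hochberg over 20644 loci, at 0.05. Fold changes used a prior count of 0.125. The common biological coefficient of variation was 0.0483. Alternatives were DESeq2 1.42.0, other scalings, no filter, all 18 libraries, only the libraries compared, a replicate block, a test against a fold of 1.5 and leaving out each library. Replicate files were not identical, with chi-square per degree of freedom of 2.698 (IAA) and 3.929 (mock) for counts within a group. RefSeq (TAIR10.1) matched 32835 loci, gave 10654 a symbol and supplied the promoter windows.

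Named were the 15 largest rises and 15 largest falls with a RefSeq symbol, no overlap between groups and 2 CPM or more on average, the 8 largest gains and 8 largest losses in CPM, the extremes and described members of 34 gene lists, and the 5 largest differences each way. The comparison, lists and rules were chosen with earlier results of these data known, so counts in the lists are descriptions.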

Additional observations from a re-analysis of the deposited data

Results flagged for a closer look

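Among 220 named or described genes, 29 were picked out because the difference between their IAA responses, with BL minus without, passed an adjusted p of 0.05 in edgeR. Differences are on the log2 scale.

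A first set responded to IAA in the same direction in both backgrounds but by a smaller log2 fold change when BL was present. GH3.2 (difference -0.84), IAA19 (-0.81), ACS9 (-1.92), NCED9 (-1.57) and WOX11 (-1.50) rose less, and PSK4 (0.70), NIP1;1 (0.86), BGAL4 (0.88) and AT4G11320 (0.60) fell less. NCED9, an abscisic acid synthesis gene, rose by 1.14 with BL present and by 2.72 without, and WOX11, a homeobox gene, by 2.15 and 3.65. BL alone raised ACS9 by 2.53, NCED9 by 2.08, WOX11 by 1.25 and GH3.2 by 0.99 over mock. Mean levels of ACS9, NCED9 and GH3.2 were 35.3, 10.6 and 1568 CPM with IAA plus BL. With IAA alone they were 22.7, 7.4 and 1412 CPM. WOX11 was at 11.4 CPM with IAA plus BL and 13.7 CPM with IAA alone.

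A second set responded more when BL was present. PLT3 (0.61), EXPA1 (0.54), TCH3 (0.72), CYP78A10 (2.62) and UMAMIT35 (1.57) rose more. YUC8 (-0.99), CASP5 (-0.96), EXPA7 (-1.10), PRP1 (-1.04), PRP3 (-0.57), LRX1 (-0.79), MRH6 (-0.96), GSTU14 (-2.37), QWRF7 (-1.40) and AT3G28550 (-0.96) fell more. CYP78A10, a cytochrome P450 gene, rose by 7.08 with BL present and by 4.46 without, with only 0.421 and 0.408 CPM in mock. GSTU14, a glutathione transferase gene, fell by 5.66 with BL present and by 3.29 without.

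In the other 5 genes the sign or the call differed. YUC9 (difference -0.91) changed by -0.37 with BL present and by 0.55 without. SNRK2.5 (1.31) changed by 0.47 with BL present and by -0.84 without. ACS2 (1.05) changed by 1.04 and -0.00, WAKL5 (1.53) by 1.22 and -0.30, and ARR7 (1.48), a cytokinin response regulator gene, by 0.20 and -1.28, each with BL present first.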

How the results depend on the processing

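Over 12 alternatives, 8588 of the 12236 called loci (70.2%) and 2475 of the 2829 that changed more than 2-fold (87.5%) were called with the same sign in every one. For the single-gene results, differences between the IAA responses included, 2754 of 2799 alternative values kept the same status, called or not called. A call was lost in 39, gained in 6 and reversed in 0. Of 220 genes, 211 kept the same status for IAA against mock throughout, called or not called. The others were ARF7 and PIN2, which gained a call, and GH3.17, GA3OX1, GSO1, RBCS1A, UMAMIT35, RABA4C and AT5G48020, which lost one. Besides the list counts given above without single libraries, DESeq2 called 2 falls among receptors and corepressors (4 in the report) and 1 in phloem (2), and the fit of all 18 libraries called 3 falls in G2 and mitosis (5), 1 in phloem and 1 rise in redox enzymes (2). Tested against a fold of 1.5, 3581 loci were called (1699 higher, 1882 lower), fewer by construction. DESeq2 called 10054. Leaving out 1 library gave 10092 to 10829 calls for IAA against mock, 2723 to 2851 of more than 2-fold, 9420 to 10895 with BL present and 141 to 348 differences between the IAA responses. The difference was called for 860 loci with no filter, for 185 in the fit of all 18 libraries and for 272 by DESeq2, against 298, and the cause was not tested. Equal replicate numbers showed little shared deviation between IAA and mock (correlation of deviations -0.0753), which cannot settle whether the samples were paired. With a replicate block 11960, 2811, 11448 and 267 loci were called, as against 12236, 2829, 11611 and 298. The median log2 fold change of all loci lay between -0.015 and 0.002 under 4 scalings. Depth limits loci under 1 CPM, whose median standard error was 0.442.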

Other observations

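Gene groups outside the lists were also looked at, some of which moved mostly in 1 direction and some both ways. All of the following were chosen after their values were seen, so they are descriptions. Genes of the thalianol cluster, neighbours on chromosome 5 that make a root triterpene, fell. The synthase gene THAS1 had 81.9 and 97.2 CPM with IAA and 346 and 403 CPM in mock (log2 fold change -2.07), CYP708A2 had 72.2 and 93.7 CPM with IAA and 347 and 339.5 CPM in mock (-2.06), and CYP705A5 had 72.1 and 80.8 CPM with IAA and 471 and 475 CPM in mock (-2.64). The marneral cluster on the same chromosome fell too, with MRN1 at 3.6 and 4.15 CPM under IAA and 65.8 and 51.7 CPM in mock (-3.95), CYP71A16 at -2.25 and CYP705A12 at -2.08. Of genes beside or between the clusters, RABA4C was at -0.26 and AT5G48020 at -0.15, calls that leaving out single libraries ended, and AT5G47970 (0.01), AT5G42570 (-0.08), AT5G42620 (0.00) and AT5G42610 (-0.66, at under 1 CPM) were not called.

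Lipid-transfer loci, many of them near-identical tandem copies whose reads may be shared, went both ways. AT5G46900 had 0.53 and 0.542 CPM with IAA and 123 and 139.9 CPM in mock (-7.93), the largest fall of all loci tested, and AT5G46890 had 1.31 and 1.26 CPM with IAA and 119.8 and 149.6 CPM in mock (-6.70). AT4G12510 and AT4G12520 fell by 6.55 and 4.50. Nearby on chromosome 4, EARLI1 had 195 and 256 CPM with IAA and 58.1 and 39.4 CPM in mock (2.21), and AZI1 rose by 1.91. AIR1 (AT4G12550), also nearby and named for induction by auxin, had 78.1 and 80.8 CPM with IAA and 159.8 and 180.0 CPM in mock (-1.10).

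By RefSeq product name, 61 of 116 tested genes for C1-domain proteins fell and 12 rose (median -0.54, against 0.00 over all loci), and 20 of 30 histone genes fell and 1 rose (-0.24). Over all loci tested, 29.3% fell and 29.9% rose. MtN21-type transporter genes fell in 20 of 37 cases and rose in 7, with UMAMIT20 at 3.68 and 3.25 CPM under IAA and 42.4 and 43.3 CPM in mock (-3.60) and UMAMIT15 at 4.64. Pentatricopeptide repeat genes rose in 95 of 217 cases and fell in 6 (median 0.34). Of 27 tested snoRNA loci, 18 rose and 0 fell (median 0.96). These short RNAs lie within or beside other genes, and the share of their reads that comes from such genes was not tested.

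AT2G03740, a locus for a late embryogenesis abundant domain protein, had 386 and 188 reads with IAA and 0 and 0 in mock, and was at least 196-fold higher with IAA (limit of 3 reads over the mock group). AT4G11020 had no read with IAA and 21 and 25 in mock, and was at least 15.4-fold lower with IAA.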
